A study of Arabidopsis thaliana and Zea mays with 12 samples.

Results

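MSRB5, ATB2 and VTC4 are 3 Arabidopsis thaliana genes of oxidation-reduction metabolism, out of 22746 non-control probe sets on the Arabidopsis ATH1 array. They were chosen by their signals in phenotype Br against phenotype Ag on these arrays, so their own differences between these groups are described and not tested. The series holds 12 one-colour Affymetrix arrays of 2 species, and the 6 Arabidopsis arrays are used here, 3 labelled Ag and 3 labelled Br. The plants were 2 weeks old and were cut close to the midpoint of the daily light, and the labels give the tissue as adult leaf while the design text speaks of aerial parts. The labels name Ag and Br as phenotypes and give no genotype, line or treatment for either, and each array held RNA pooled over several plants. The arrays of a group are called biological replicates in the labels.

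Methionine residues of proteins are oxidised to methionine sulfoxide by reactive oxygen species, and methionine sulfoxide reductases turn them back. Enzymes of type A act on the S form and enzymes of type B, to which MSRB5 belongs, on the R form, and most draw their electrons from thioredoxins or glutaredoxins. ATB2 belongs to the aldo-keto reductases, enzymes that reduce aldehydes and ketones with NADPH, among them reactive carbonyls formed from oxidised lipids and sugars. VTC4 encodes the L-galactose-1-phosphate phosphatase of the main plant route to ascorbate (vitamin C), the most abundant soluble antioxidant of leaves, and its enzyme also removes the phosphate from inositol phosphates.

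MSRB5 (AT4G04830), ATB2 (AT1G60710) and VTC4 (AT3G02870) were each read by 1 probe set. A gene is called measured below if the annotation listed a probe set for it alone. For 8730 probe sets no gene was listed, so a gene not counted as measured may still be on the array. The gene table also gives ATB2 as an older name of GBF6, a bZIP transcription factor gene at another locus, which is not the gene described here. Levels below are deposited intensities, scaled by the authors to the same mean on every array, and a low intensity cannot be called absent. Log2 changes are Br minus Ag of log2(intensity + 16) after quantile normalization, which understates the change of dim probe sets.

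In a principal component analysis of all probe sets, the first Br array fell between the groups on the leading component (45.5% of the variance). Its score was 5.57, against -32.8 to -24.6 for the Ag arrays and 34.5 and 42.6 for the other Br arrays. The ratio of 3' to 5' signal of the control transcripts reports on RNA integrity, and its mean was lower in Br for every control pair. It did not overlap between the groups for ubiquitin by both sets of control probe sets, GAPDH by the first and actin by the r2 set. For ubiquitin it ran from 3.37 to 5.22 in Ag and from 2.27 to 2.94 in Br by 1 set of control probe sets, and from 1.76 to 2.35 and from 0.908 to 1.21 by the r2 set. For GAPDH it ran from 2.39 to 2.92 in Ag and from 1.17 to 1.93 in Br by the first set, but overlapped by the r2 set, at 0.794 to 0.903 and 0.718 to 0.800. Its part in the values below was not tested. Of the tissue markers, 3 of 6 leaf mesophyll genes were measured (RCA, LHCB4.1 and PRK). Their summed intensity ran from 12867 to 17553 in Ag and from 11372 to 11880.1 in Br on the deposited scale. By limma 0 of the 3 passed after quantile normalization (PRK alone had an unadjusted p under 0.05, at 0.019), and the part of this in the values below was not tested. The 1 measured root marker of 8, EXPA7, was dim in both groups, between 3.09 and 17.0. The sum of 3 measured epidermis and stomata markers of 8 ran from 48.0 to 79.2 in Ag and from 77.0 to 96.1 in Br. Of these 3, 0 passed by limma, and their directions differed. FMA made up most of the sum, with means of 54.0 in Ag and 62.1 in Br. SPCH and MUTE were dim, with means of 9.07 and 5.32 in Ag and 22.1 and 2.20 in Br. 0 of 5 flower and seed markers and 0 of 4 vascular markers had a listed probe set.

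MSRB5 read 134, 201 and 208 on the 3 Ag arrays and 36.2, 43.8 and 40.4 on the 3 Br arrays. All 3 Br arrays were low and close together, and the groups did not overlap. The means were 181 ± 40.9 in Ag and 40.1 ± 3.83 in Br (SD, n = 3), so the Ag mean was 4.51 times the Br mean. The log2 change was -1.81 ± 0.18 (SE). Over the 9 pairs of an Ag and a Br array, the Ag intensity was between 3.06 and 5.74 times the Br intensity. Most of the spread in Ag came from its first array, which was the lowest of the 3 but still far above every Br array. In leaves RNA of many cell types is mixed, and fewer cells of a type and less RNA per cell cannot be told apart in such samples. MSRB5 and ATB2 were each read by 1 probe set. Whether its signal follows the amount of RNA alike in Ag and Br was not tested for either gene.

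ATB2 read 283, 265 and 279 in Ag and 29.4, 30.4 and 38.8 in Br. The Ag arrays differed from each other by a factor of 1.07 at most and the Br arrays by 1.32, and the groups were far apart. The means were 276 ± 9.19 and 32.9 ± 5.16 (SD, n = 3), so the Ag mean was 8.38 times the Br mean. The log2 change was -2.60 ± 0.12 (SE). It ranked 15th from the most negative among all probe sets, and MSRB5 ranked 52nd. The first Br array, which lay between the groups over the whole array, was the lowest of the 6 for ATB2 and for MSRB5.

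VTC4 differed from both in direction and in its arrays. It read 113, 267 and 191 in Ag and 187, 659 and 705 in Br. The second and last Br arrays were above every Ag array, while the first Br array lay within the Ag range, at 0.982 times the Ag mean. The groups therefore overlapped, and the first array was the lowest in Ag as well as in Br. The means were 190.5 ± 77.0 in Ag and 517 ± 287 in Br (SD, n = 3), a ratio of 2.71, and the log2 change was 1.24 ± 0.52 (SE). Relative to the mean of Ag on the normalized log2 scale, the 3 Br arrays stood at 0.06, 1.76 and 1.91. Without the first Br array the ratio of means was 3.58 and the log2 change 1.84 ± 0.32 (SE). The 3'/5' ratio of actin by the first control set had a similar split, at 9.71 to 12.5 in Ag, 9.88 on the first Br array and 4.78 and 4.73 on the other Br arrays, and its part in the VTC4 values was not tested. By the r2 control set all 3 Br arrays, the first included, were below the Ag arrays, at 1.64, 1.74 and 1.20 against 1.90 to 2.35.

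**Figure D1:**
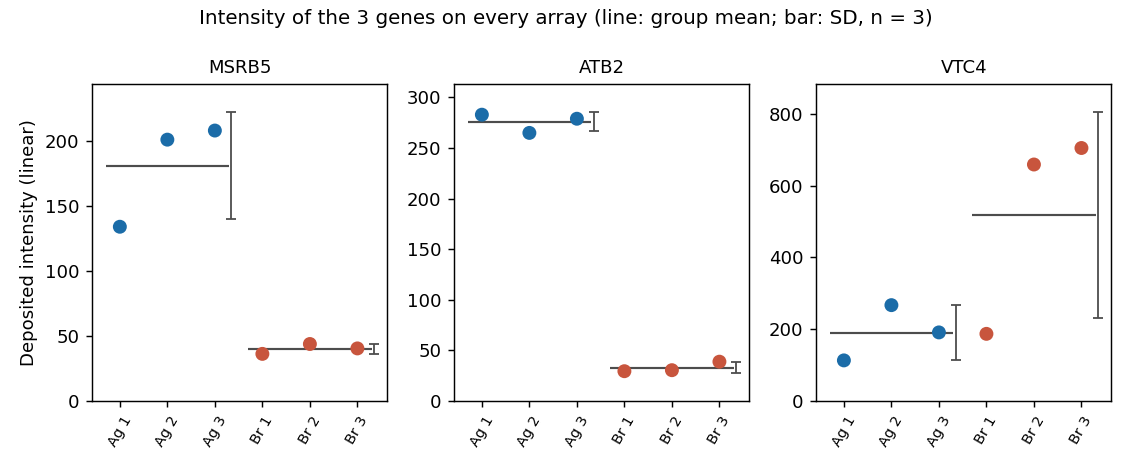
Deposited intensity (linear axis from 0) of MSRB5, ATB2 and VTC4 on each of the 3 Ag arrays (blue) and 3 Br arrays (red), with a line at each group mean and a bar of 1 SD. MSRB5 and ATB2 were low on every Br array, with means of 40.1 and 32.9, whereas VTC4 read 187 on the first Br array and 659 and 705 on the others.

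Of the 3 genes, 2 (MSRB5 and ATB2) were among the probe sets past the limma threshold. Of all probe sets 2.08% were past it, 0.963% higher and 1.12% lower in Br. The groups did not overlap in deposited intensity for the same 2 genes, and for 20.7% of all probe sets (12.1% higher and 8.67% lower in Br). VTC4 was not past the threshold with all 6 arrays. These counts use the contrast by which the genes were chosen and say nothing further about them.

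The other methionine sulfoxide reductase genes did not pass the test. Of 13 listed beside MSRB5, 4 had a listed probe set, and 0 rose and 0 fell in Br by limma. At an unadjusted p under 0.05 the count was 0 as well, and the share of all probe sets at that p, against which this count and those of the lists below are to be read, was 16.1%. Their median log2 change was -0.03, against -0.0018 over all probe sets. MSRB6, the next gene on the chromosome after MSRB5, read 276, 256 and 265 in Ag and 184, 285 and 129 in Br. Its second Br array was above every Ag array and the other 2 below, and its log2 change was -0.44 ± 0.25 (SE, limma adjusted p = 0.45). MSRB3, whose enzyme sits in the endoplasmic reticulum, read 90.9 ± 13.2 in Ag and 88.3 ± 28.0 in Br (SD, n = 3; limma adjusted p = 0.87). MSRB9 read 25.1 ± 2.37 and 33.8 ± 13.5 (limma adjusted p = 0.76). MSRA5, the 1 measured gene of type A, read 65.5 ± 13.1 and 71.6 ± 11.4 (limma adjusted p = 0.91).

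Of the 21 other listed aldo-keto reductase genes, 12 were measured. By limma 0 rose and 0 fell (1 by an unadjusted p under 0.05). Their log2 changes ran from -0.61 to 0.04 with a median of -0.08. Of the 12, 10 were negative, as were 11472 of all 22746 probe sets. The gene with the smallest p was AT1G59960. It read 55.5, 48.1 and 59.1 in Ag and 28.0, 37.9 and 30.4 in Br, without overlap, and its log2 change of -0.61 ± 0.14 (SE) missed the threshold (limma adjusted p = 0.082). ATB2 lies in a run of related genes on the chromosome, of which 3 more were measured. AT1G60690 read 56.7 ± 3.45 in Ag and 58.0 ± 6.65 in Br (SD, n = 3; limma adjusted p = 0.94). AT1G60730 and AT1G60750 were dim, at 14.3 ± 6.78 and 5.63 ± 3.61 in Ag and 9.53 ± 1.66 and 5.13 ± 2.19 in Br (limma adjusted p = 0.50 and 0.90). Related genes in such a run can share signal on an array, and this was not tested. Nor was it tested for MSRB5, which has MSRB3 and MSRB6 near it on the chromosome.

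**Figure D2:**
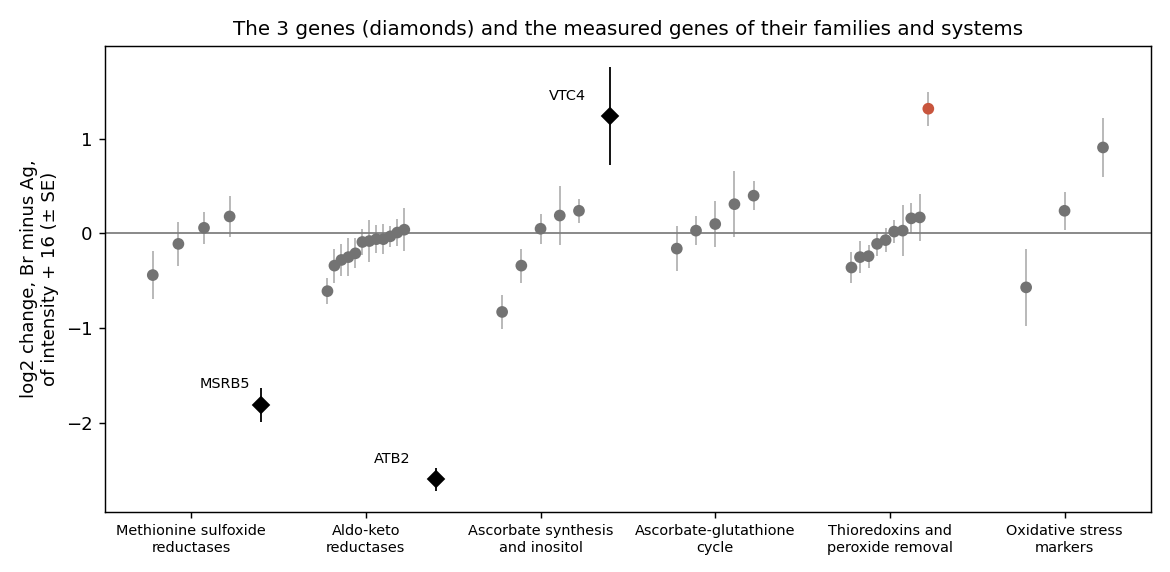
Log2 change of intensity + 16, Br minus Ag, with its SE (vertical axis), for MSRB5, ATB2 and VTC4 (diamonds) and for each measured gene of 6 lists (points; red marks a gene past the limma threshold, grey one that missed it). The 4 other methionine sulfoxide reductase genes lie between -0.44 and 0.18 and the 12 other aldo-keto reductase genes between -0.61 and 0.04, and the red point is ty2 at 1.32.

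The ascorbate route was covered in part. Of 19 listed ascorbate synthesis and inositol genes beside VTC4, 5 were measured, 3 with a symbol and 2 by locus code, and by limma 0 rose and 0 fell (1 by an unadjusted p under 0.05). Their median log2 change was 0.05. It was -0.34 with AT2G40815, a locus first listed in error and replaced by AT2G40860 after the values had been seen. GME, for the GDP-mannose epimerase that forms GDP-L-galactose upstream of VTC4, read 1113, 1419.6 and 869.8 in Ag and 595, 533 and 676 in Br. Every Br array was below every Ag array, the opposite side from VTC4, and its log2 change was -0.83 ± 0.18 (SE). It missed the threshold (limma adjusted p = 0.078), and passed with array weights (adjusted p = 0.045) or without dim probe sets (adjusted p = 0.047). PMM, the phosphomannomutase of an early step, read 331 ± 40.6 in Ag and 385 ± 13.9 in Br (SD, n = 3; limma adjusted p = 0.43).

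GLDH, for the mitochondrial enzyme of the last step, read 68.6 ± 15.9 in Ag and 73.8 ± 6.47 in Br (SD, n = 3; limma adjusted p = 0.93). AT2G40860, listed by its locus code, was dim, at 19.5 ± 10.8 in Ag and 26.2 ± 13.3 in Br (limma adjusted p = 0.83). AT4G33670, likewise listed by locus code and on the aldo-keto reductase list as well, read 701 ± 34.7 and 553 ± 130.5 (SD, n = 3; limma adjusted p = 0.42).

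**Figure D3:**
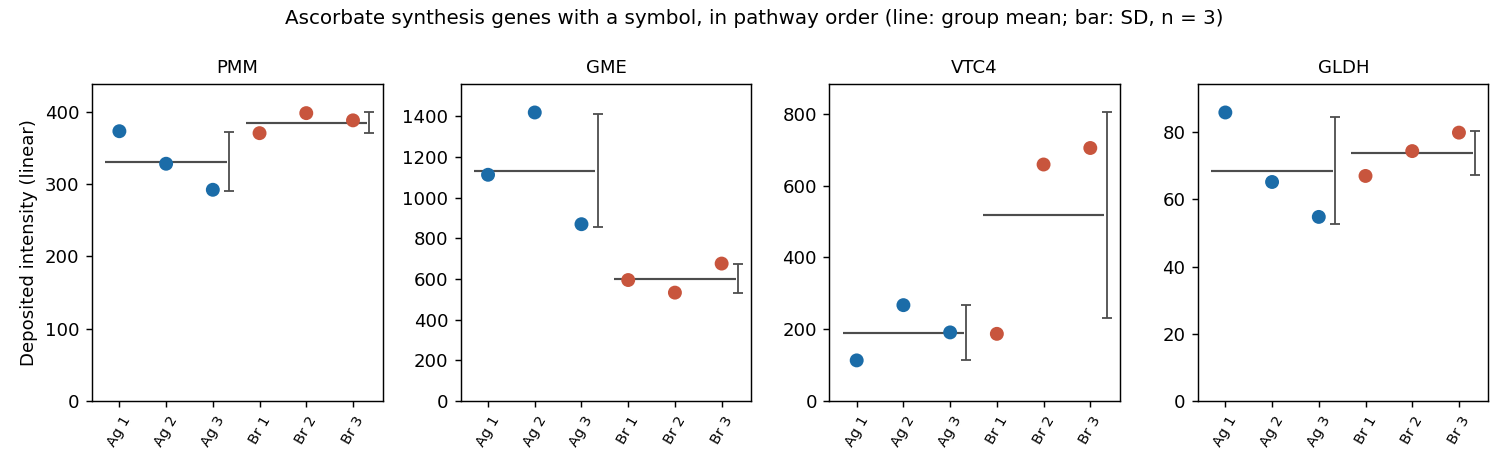
Deposited intensity (linear axes from 0, a scale of its own for each gene) of the 4 measured ascorbate synthesis genes with a symbol, in the order of the pathway, on the 3 Ag arrays (blue) and 3 Br arrays (red), with a line at each group mean and a bar of 1 SD. GME was lower on every Br array, VTC4 was higher on 2 of the 3, and PMM and GLDH overlapped between the groups.

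The enzymes that use ascorbate or restore it did not pass the test. Of 20 listed genes of the ascorbate-glutathione cycle 5 were measured, and by limma 0 rose and 0 fell (1 by an unadjusted p under 0.05). TAPX, the ascorbate peroxidase of the thylakoid membrane, had the largest log2 change of the 5, at 0.40 ± 0.15 (SE). It read 567 ± 83.7 in Ag and 738 ± 76.2 in Br (SD, n = 3; limma adjusted p = 0.24). GR1, for a glutathione reductase, read 187, 312 and 255 in Ag and 168, 411 and 411 in Br (limma adjusted p = 0.74). Its first Br array was the lowest of the 6 and the other Br arrays were the highest.

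Of 46 listed thioredoxin and peroxide removal genes 10 were measured. By limma 1 rose and 0 fell in Br, where 2.08% of all probe sets passed in either direction. At an unadjusted p under 0.05 the count was 1 of the 10, against 16.1% of all probe sets. The gene that rose was ty2, for the plastid thioredoxin Y2, a class of thioredoxin known to supply electrons to plastid methionine sulfoxide reductases. A link of ty2 to MSRB5 was not tested. In intensity, ty2 read 275, 302 and 205 in Ag and 546, 754 and 676 in Br. Every Br array, the first included, was well above every Ag array. The log2 change was 1.32 ± 0.18 (SE, limma adjusted p = 0.019). It missed the threshold without any single array other than the first of Br (adjusted p from 0.058 to 0.098) and with a pseudocount of 1 (adjusted p = 0.075). TY1, for the related thioredoxin Y1 and singled out after its values were seen, read 36.0 ± 8.56 in Ag and 29.9 ± 8.90 in Br (SD, n = 3; limma adjusted p = 0.53). After ty2 the largest change of the list was that of AT3G52960, which read 998 ± 106 and 750.4 ± 137 (limma adjusted p = 0.34).

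Of 10 listed markers of oxidative stress 3 were measured, and by limma 0 rose and 0 fell (1 by an unadjusted p under 0.05). NDB2, for an NAD(P)H dehydrogenase on the outer face of the inner mitochondrial membrane, read 37.0, 31.8 and 60.9 in Ag and 57.5, 108 and 143 in Br. The first Br array was again within the Ag range and the other Br arrays above it. Its log2 change was 0.91 ± 0.31 (SE, limma adjusted p = 0.21), and it passed without the first Br array (adjusted p = 0.046). It missed the threshold without any other single array (limma adjusted p from 0.25 to 0.49). It also missed when the first arrays of Ag and Br were left out (adjusted p = 0.097). STZ, for a zinc finger factor of the response to light and salt stress, read 56.5 ± 41.7 in Ag and 31.6 ± 17.1 in Br (limma adjusted p = 0.56).

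The chromosomal surroundings of the 3 genes were examined over the 10 annotated protein-coding genes on each side. Of the 60 neighbours 25 had a listed probe set, with a median log2 change of 0.02. By limma 1 rose and 0 fell in Br, where 2.08% of all probe sets passed in either direction. At an unadjusted p under 0.05 the count was 2 of the 25, against 16.1% of all probe sets. The gene that rose was AT4G04790, 3 genes from MSRB5. It read 10.9, 8.25 and 15.4 in Ag and 30.1, 38.9 and 48.3 in Br, without overlap and in the opposite direction from MSRB5. Its log2 change was 0.93 ± 0.17 (SE, limma adjusted p = 0.045), and it missed the threshold without any single array other than the first of Br (adjusted p from 0.091 to 0.17). It also missed with a pseudocount of 1 or 64 (adjusted p = 0.089 and 0.075) or when the first arrays of Ag and Br were left out (adjusted p = 0.056). Around ATB2, 8 neighbours were measured, with log2 changes from -0.28 to 0.22. Around VTC4, 10 were measured, from -0.56 to 0.47.

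**Figure D4:**
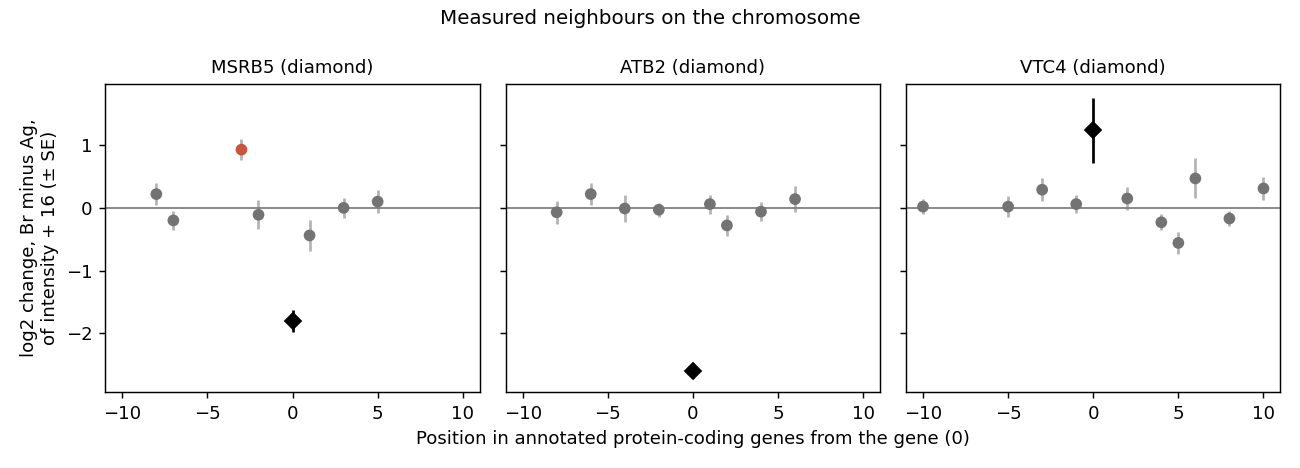
Log2 change of intensity + 16, Br minus Ag, with its SE, of MSRB5, ATB2 and VTC4 (diamonds at position 0) and their measured neighbours, by position in annotated protein-coding genes. Grey points missed the limma threshold, and the red point is AT4G04790 at 0.93, beside MSRB5 at -1.81.

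The profiles of the 3 genes over the 6 arrays were compared by the root mean square difference of the normalized log2 values after each gene's mean had been taken off. It was 0.46 between MSRB5 and ATB2, 1.63 between MSRB5 and VTC4 and 2.03 between ATB2 and VTC4. The contrast of Br and Ag by which the genes were chosen also shapes these profiles, so the differences are a description only. Among 1550 probe sets with a gene symbol other than a locus code, the profile most similar to that of MSRB5 was bHLH121, which encodes a basic helix-loop-helix regulator of iron uptake, at 0.25. It read 230.0, 384 and 424 in Ag and 128, 125 and 95.6 in Br, with the first Ag array the lowest of its group, as for MSRB5. The next were scpl50 at 0.33, UGT73B1 and SCPL34 at 0.35 and CYTC6A at 0.38. The profile most similar to ATB2 was ETFBETA, whose product carries electrons from amino acid breakdown in mitochondria, at 0.34. It read 185, 192 and 168 in Ag and 39.9, 19.5 and 17.8 in Br. MSRB5 came second at 0.46, followed by CYTC6A at 0.49, ETFQO at 0.62 and bHLH121 at 0.68.

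The 5 profiles most similar to VTC4 were those of SAG29 at 0.27, CHIL at 0.28, SWEET2 at 0.30, the plastid gene rpl16 at 0.37 and XTH32 at 0.38. CHIL, for a chalcone isomerase-like protein of flavonoid synthesis, read 7.81, 30.7 and 32.1 in Ag and 31.4, 77.6 and 94.2 in Br. SWEET2, for a sugar transporter, read 42.8, 113 and 84.2 in Ag and 49.2, 215 and 194 in Br. In 4 of the 5 the first Br array lay within the Ag range, as for VTC4, and in XTH32 it was below, at 242 against 268 to 365 in Ag. The first Ag array was also the lowest of its group, as for VTC4, in all of them but SAG29. The 5 genes nearest to MSRB5 and the 5 nearest to ATB2 all had groups that did not overlap. Since these genes were picked for their likeness, the shared form is a description of the choice.

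**Figure D5:**
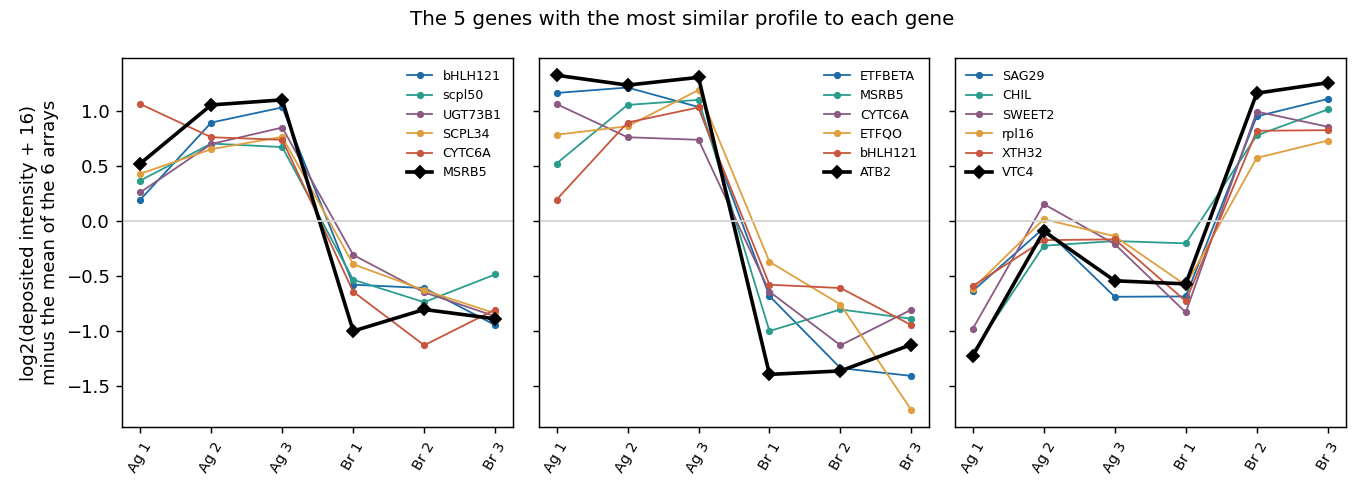
Log2 of the deposited intensity + 16, less the mean of the 6 arrays, for MSRB5, ATB2 and VTC4 (black) and the 5 genes of most similar profile to each (colours), with lines that join the arrays only to guide the eye. In the left and middle panels every Br array is low, and in the right panel the first Br array lies with the Ag arrays.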

How the data were processed

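The deposited unit is the linear intensity of each probe set. The authors had scaled every array to a mean of 100 with the extreme 2% left out at each end, as the values show, and the software that made them is not given in the sources used here. Each array's RNA came from a pool of plants, per the labels' protocols, and p-values therefore cover only the variation among such pools. After removal of 64 control probe sets, log2(intensity + 16) was quantile-normalized between the 6 Arabidopsis arrays and fitted with limma 3.58.1 in R 4.3.3 (lmFit, eBayes, two-sided, Benjamini-Hochberg over 22746 probe sets, threshold 0.05). The fit was also run on simulated data with independent noise. These held no discordant array and no difference in RNA integrity, so they cannot show how the fit deals with either. 0 columns lacked a sample, and the maize arrays were not used here.

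Gene names came from GEO's annotation of the array, brought up to date by gene ID with the table of assembly TAIR10.1. It gave 1 gene for 13513 probe sets, several for 503 and none for 8730. Lists were written by locus code, 1 of which was corrected after the values had been seen, and a gene with several probe sets was read by that of highest mean. The members and the lists were chosen with earlier results of these data known. Named are the members, every called gene of the lists and of the neighbours, measured genes of the members' own families (any of which could be named), the 2 largest changes of each other list, and for each member the 5 genes of most similar profile. Alternatives covered scaling, pseudocount, dim probe sets, replicate block, moderation, array weights, probe set choice and left-out arrays. Every measured gene of the lists and neighbours had 1 listed probe set, so probe set choice could not alter a count.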

Additional observations from a re-analysis of the deposited data

How the results depend on the processing

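With 3 arrays a group, precision was limited by their number. The log2 changes of MSRB5, ATB2 and VTC4 kept their sign in all 45 values over the alternatives. Of the 45, 41 moved by less than 1 SD of the gene's own arrays within the groups. That margin was wide for VTC4, whose SD on the log2 scale was 0.56 in Ag and 1.03 in Br. The replicate block, the other moderation and leaving out dim probe sets cannot alter a log2 change here, so those values were fixed in advance. A pseudocount of 1 gave -2.16 for MSRB5 and -3.08 for ATB2, and a pseudocount of 64 gave -1.23 and -1.82, since the added constant compresses the change of dim signals. With a single array left out the values ran from -2.00 to -1.71 for MSRB5, from -2.70 to -2.56 for ATB2 and from 0.91 to 1.84 for VTC4, lowest without the last and highest without the first Br array. The number of probe sets past the threshold was 473, and 148 with a pseudocount of 1, 889 with array weights and 105 to 884 with a single array left out. Neither scaling alternative moved the median change of all probe sets by over 0.1. Calls of thioredoxin and peroxide removal genes were 0 with a pseudocount of 1 and 0 to 1 with a single array left out. Calls of neighbours were 0 with a pseudocount of 1 or 64 or when the first arrays of Ag and Br were left out, and 0 to 1 with a single array left out. Calls of ascorbate synthesis genes were 1 without dim probe sets or with array weights, GME in each case, and 0 with any single array left out or with the locus first listed in error. Those of oxidative stress markers were 0 to 1 with a single array left out. The cause of these moves was not tested. Same-numbered arrays of the groups had deviations that correlated at 0.316, 0.0289 and 0.112 across probe sets. Arrays of different number were not set beside them, so these values cannot decide whether the numbers are pairs. The main fit did not take them as pairs. With the replicate number as a block 347 probe sets passed, and ty2 and AT4G04790 still passed (limma adjusted p = 0.035 and 0.043). The log2 changes stayed at -1.81, -2.60 and 1.24, as they must in a balanced design.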
